A study of Rattus norvegicus with 6 samples.

Results

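The transcripts described here are those of 10 circadian clock genes in the renal cortex of rats: the activator genes Arntl and Npas2, the repressor genes Per1, Per2, Per3 and Cry1, the nuclear receptor genes Nr1d1 and Nr1d2, and the output factor genes Dbp and Tef. They were taken as a named gene set from knowledge of the clock, and their probes were found by matching each probe's transcript accession to a RefSeq gene table, in which Arntl is listed as Bmal1. The match gave 22 probes out of 61537 non-control probes on the array, with between 1 and 5 probes a gene. Expression was measured on 1-colour Agilent arrays in 3 rats given monuron, a phenylurea herbicide, at 200 mg/kg/day by the submitters' account, and in 3 rats given corn oil, the vehicle. All 6 were male Sprague-Dawley rats of the Crl:CD(SD) stock, bought at 5 weeks of age, kept under 12 h of light a day and dosed for 4 weeks. The time of day at which the tissue was taken is not given in the sources used here, so it could not be compared between the groups. The tissue was whole cortex, and the herbicide was given at 1 dose for 1 length of time.

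The circadian clock is a feedback loop of transcription that runs in nearly every cell, kidney tubule cells included. ARNTL pairs with CLOCK or its relative NPAS2 and switches on the Per, Cry and Nr1d genes through E-box elements. The PER and CRY proteins then block that pair, while the NR1D receptors (REV-ERB alpha and beta) silence Arntl and Npas2 through RORE elements. DBP and TEF are PAR bZIP transcription factors that carry the rhythm to output genes through D-box elements, at which NFIL3 acts as their repressor. In mouse tissues Dbp, Tef and the Nr1d genes peak roughly opposite to Arntl and Npas2, and in the kidney the clock is known for its part in the daily course of sodium and water excretion.

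The elements through which these proteins act were looked for in the promoter windows, which hold 250 bases before and 50 bases after each annotated start (RefSeq, build GRCr8). Windows were matched for 9 of the 10 genes, all but Cry1, and Nr1d1 has an additional start, which gave 10 windows. The letters were searched on both strands. They were CACGTG for the E-box, TTATGTAA for the D-box, TAGGTCA for the core of the RORE and TGACGTCA for the cyclic AMP response element. The E-box letters stood in windows of Tef and Nr1d1, the D-box letters in that of Per2 and the RORE core in that of Arntl, and the cyclic AMP element in 0 of the 10. Of all 33469 windows of that length, 6.42% held the E-box letters, 0.893% the D-box letters, 2.63% the RORE core and 1.83% the cyclic AMP element. Each stretch found before a start is shown 5′ to 3′ on the gene's own strand to let the elements that link these genes be read, with the matching letters in capitals.
Arntl (RORE core, chr1:176766297-176766327, plus strand): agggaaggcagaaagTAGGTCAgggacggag
Tef (E-box, chr7:115206614-115206651, plus strand): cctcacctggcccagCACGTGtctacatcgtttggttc
Per2 (D-box, chr9:99497163-99497200, minus strand): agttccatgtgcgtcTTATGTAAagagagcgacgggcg
Nr1d1 (E-box, chr10:84229623-84229660, minus strand): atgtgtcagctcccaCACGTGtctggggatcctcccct
Counted from the start, the first base of the match lies at -16 in Arntl, -198 in Tef, -192 in Per2 and -191 in Nr1d1. A match is a description of these letters, and a window without them says nothing of elements elsewhere in the gene.

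The arrays carry some facts that touch every value below. The 3 monuron arrays shared 1 slide and the 3 corn oil arrays another, scanned on different days, so slide and treatment cannot be told apart. The share of probes well above background was 70.4%, 68.7% and 69.4% on monuron replicates 1 to 3. On corn oil replicates 1 to 3 it was 70.1%, 60.9% and 65.9%. The lowest signal well above background was 30.0 on corn oil replicate 2 and 13.5 to 19.6 on the other arrays. The part of this in the detection of dim probes below was not tested. The arrays of a group correlated at 0.989 to 0.994 over the tested genes. Markers of cell types found in the cortex were detected: all 5 proximal tubule, 4 podocyte and 4 thick ascending limb and distal nephron markers were measured. No list of medulla markers was set beside them, so the cortex label itself was not tested. The summed level of the thick ascending limb and distal nephron markers overlapped between the groups. That of the podocyte markers was 28.9 to 29.7 with monuron against 30.9 to 37.8 with corn oil, without overlap, and 0 of them were called. The summed level of the proximal tubule markers was 829 to 949 with monuron against 977 to 1069 with corn oil, also without overlap. None of the 5 was called, with the smallest adjusted p in Cubn (fold 0.622, adjusted p = 0.0669) and Lrp2 (fold 0.699, adjusted p = 0.0760), the endocytic receptors of that segment. The part of these markers in the results below was not tested. The summed level of 6 hepatocyte markers was 40.3, 20.7 and 14.6 on monuron replicates 1 to 3, against 9.20, 12.6 and 22.7 on corn oil replicates 1 to 3. Of the adrenal cortex markers, no array detected Cyp11b2 or Mc2r above background, Cyp11b1 was detected on 1 monuron array, and a probe of Cyp21a1 stood at 0.245 to 0.288 with monuron and 0.243 to 0.299 with corn oil. In whole tissue, fewer cells of a type and less RNA per cell cannot be told apart.

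None of the 10 clock genes was called different between monuron-dosed and corn oil cortex by limma at an adjusted p under 0.05, where 1.36% of all 30229 tested genes were called. Of these 30229, 12072 have a gene symbol, and the others are transcript identifiers of the array that the RefSeq table did not name, each counted as a gene of its own. On the brightest probe of each gene, the group means lay within 1.26-fold of each other for 8 of the 10. Larger differences were seen there only in Per1 and Nr1d1, whose levels also differed most between rats of a group. A dimmer probe of Npas2 (fold 0.715) and one of Tef (fold 0.764) lay outside that range. An unadjusted p under 0.05 was reached by 1 of the 10 genes, Nr1d2, against 17.6% of all tested genes. The groups did not overlap in 1 of the 10, again Nr1d2, against 25.7% of all tested genes. The median log2 fold change of monuron over corn oil was -0.11 over the 10, with 7 below 0 and 3 above, and 0.024 over all tested genes. These values rest on scaling by the 75th percentile of an array: scaled on the spike-in controls instead, the median of all genes was -0.48, 68.6% of all genes were called lower and 0.992% higher, and 7 of the 10 clock genes (Arntl, Npas2, Per2, Per3, Cry1, Dbp and Tef) were called lower too. Both scalings divide each array by 1 value, so the log2 fold changes of the 10 genes all moved by the same amount. Taken relative to the median of all genes they lay between -0.57 (Per1) and 0.67 (Nr1d1). Their closeness to the main values is therefore fixed by the arithmetic and is no separate check. Levels below are the spot signal divided by the array's 75th percentile, folds are monuron over corn oil with 95% intervals, and a gene with several probes is described by its brightest first.

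**Figure D1:**
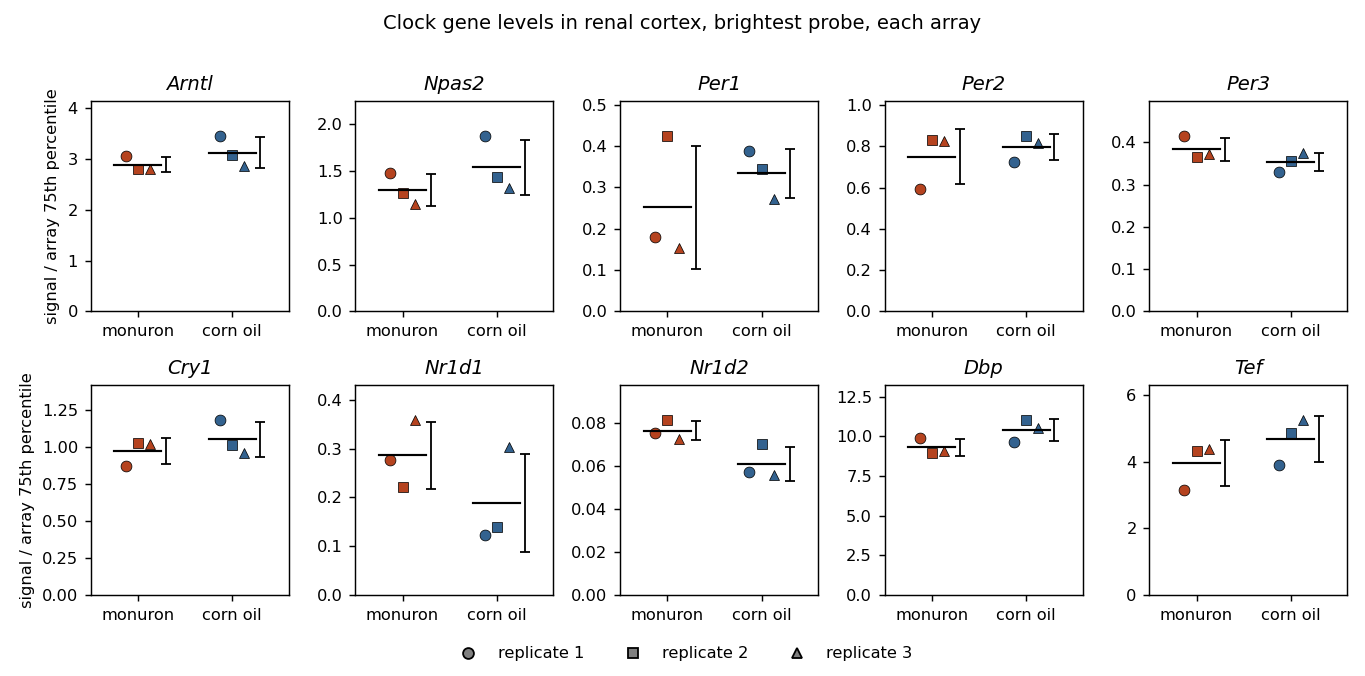
Level of each clock gene (spot signal over the array's 75th percentile, linear axis from 0, a scale of its own in each panel) by its brightest probe, with monuron at the left and corn oil at the right of each panel. Points are the 3 arrays of a group, marked by replicate number, horizontal lines are means and bars SD. The groups overlap in every panel but that of Nr1d2, and the points of Per1 with monuron and of Nr1d1 with corn oil lie farthest apart.

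The activators did not pass the test. Arntl, which encodes the partner that every active complex of the loop needs, had levels of 3.06, 2.80 and 2.80 with monuron, against 3.45, 3.08 and 2.86 with corn oil. The groups overlapped, corn oil replicate 1 was the highest array, and the lowest corn oil array stood between monuron arrays. The fold was 0.925 (0.790 to 1.08, adjusted p = 0.576), so a change of 1.5-fold either way lay outside the interval. A dimmer probe of Arntl gave 0.617, 0.558 and 0.535 with monuron and 0.719, 0.570 and 0.551 with corn oil, a fold of 0.934 (0.755 to 1.16). Both probes put the same array highest, corn oil replicate 1.

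Npas2, whose product can stand in for CLOCK, had levels of 1.48, 1.26 and 1.15 with monuron, against 1.87, 1.43 and 1.32 with corn oil. Its arrays overlapped and ran high where those of Arntl ran high: replicate 1 was the highest of each group for both genes. The fold was 0.847 (0.639 to 1.12, adjusted p = 0.502). Its dimmer probes differed in size, with folds of 0.995 (0.770 to 1.29) and 0.715 (0.492 to 1.04), and neither was called.

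Among the repressor genes, Per1, the period gene that also answers to glucocorticoids and cyclic AMP, had the widest scatter. Its levels were 0.180, 0.424 and 0.154 with monuron, against 0.388, 0.344 and 0.271 with corn oil. Monuron replicate 2 was the highest of the 6 arrays and the other monuron arrays were the lowest, a 2.76-fold range within that group against 1.43-fold within corn oil. The fold was 0.687 with an interval of 0.347 to 1.36 (adjusted p = 0.534), which leaves room for changes of over 2-fold lower. With monuron replicate 2 left out, Per1 stood at -0.99 in place of -0.54 on the log2 scale, and with monuron replicate 3 left out at -0.26, and it was called in neither case (adjusted p = 0.162 and 0.801). A dim second probe of Per1, at 0.0495, 0.0746 and 0.0536 with monuron and 0.0637, 0.0417 and 0.0619 with corn oil, gave a fold of 1.06 (0.720 to 1.57), so the probes differed in direction, although monuron replicate 2 was the highest array on both.

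Per2, the period gene most bound to the core loop, had levels of 0.595, 0.829 and 0.825 with monuron, against 0.726, 0.848 and 0.818 with corn oil. Replicate 1 was the lowest array of each group and the groups overlapped. The fold was 0.931 (0.717 to 1.21, adjusted p = 0.771). Its sign was not settled: with monuron replicate 1 left out, Per2 stood at 0.056 in place of -0.10 on the log2 scale.

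Per3, a period gene that the core loop can do without in mice, had levels of 0.414, 0.364 and 0.372 with monuron, against 0.331, 0.356 and 0.375 with corn oil. These values lay close together, with ranges of 1.14-fold and 1.13-fold within the groups. The fold was 1.08 (0.938 to 1.25, adjusted p = 0.527). Of the 4 other probes of Per3, those that passed the detection filter did so only through monuron, with all 3 monuron arrays well above background. Of the 3 corn oil arrays, 2 detected the brighter of them and 1 the dimmer, so no exact fold is given for either. Their groups overlapped and neither was called. The remaining pair, with at most 1 array well above background, was not tested.

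Cry1, a cryptochrome and the main blocker of the ARNTL complex late in the cycle, had levels of 0.873, 1.03 and 1.03 with monuron, against 1.19, 1.02 and 0.962 with corn oil. Monuron replicate 1 was the lowest array and corn oil replicate 1 the highest, while the other 4 lay between them. The fold was 0.926 (0.763 to 1.12, adjusted p = 0.656).

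The nuclear receptor genes were the members with the largest log2 fold changes above 0. Nr1d1, which encodes REV-ERB alpha, had levels of 0.277, 0.222 and 0.359 with monuron, against 0.123, 0.140 and 0.304 with corn oil. Replicate 3 was the highest array of each group, and corn oil replicate 3 stood above both lower monuron arrays. The fold was 1.62 with an interval of 0.846 to 3.08 (adjusted p = 0.403). With corn oil replicate 3 left out, Nr1d1 stood at 1.10 in place of 0.69 on the log2 scale, and with corn oil replicate 1 left out at 0.44, and it was called in neither case (adjusted p = 0.153 and 0.619).

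Nr1d2, which encodes REV-ERB beta, was dim, with levels of 0.0753, 0.0812 and 0.0725 with monuron, against 0.0571, 0.0699 and 0.0556 with corn oil. It was the only member whose groups did not overlap on the brightest probe, and all 6 arrays were well above background. The fold was 1.26 (1.04 to 1.52), and the difference did not pass the correction over all genes (adjusted p = 0.214, with 0.150 to 0.482 over the alternatives). After normexp background correction with quantile normalization its log2 fold change was 0.15 in place of 0.33.

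**Figure D2:**
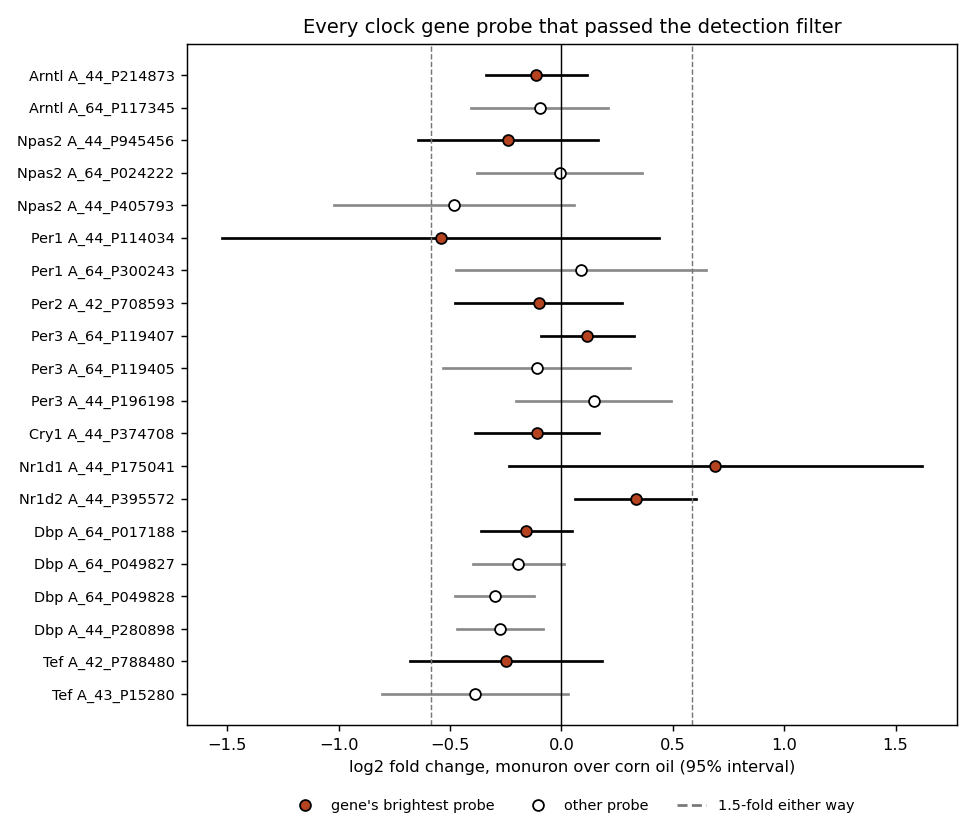
Log2 fold change of monuron over corn oil (horizontal axis) with its 95% interval for the 20 clock gene probes that passed the detection filter, each row named by gene and probe. Filled points are the brightest probe of a gene, open points its other probes, and dashed lines mark 1.5-fold either way. The open points of Per3 are probes that passed the filter only through monuron. Intervals of 3 probes, those of Nr1d2 and both dimmest probes of Dbp, leave out 0, and those of Per1 and Nr1d1 are the widest among the brightest probes.

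Neither output factor gene passed the test on any probe. Dbp, the PAR bZIP factor whose transcript swings most over the day in mouse liver and kidney, had levels of 9.92, 8.98 and 9.06 with monuron, against 9.62, 11.0 and 10.6 with corn oil. Monuron replicate 1 overlapped with corn oil replicate 1 on this probe. The fold was 0.896 (0.778 to 1.03, adjusted p = 0.386). On the other 3 probes of Dbp all monuron arrays lay below all corn oil arrays. The probe next in brightness gave a fold of 0.875 (0.759 to 1.01, adjusted p = 0.310 over all probes). The third read 2.32, 2.14 and 2.23 with monuron against 2.60, 2.88 and 2.76 with corn oil, a fold of 0.812 (0.719 to 0.918, adjusted p = 0.126). The dimmest read 1.27, 1.17 and 1.21 against 1.37, 1.56 and 1.48, a fold of 0.826 (0.723 to 0.944, adjusted p = 0.169). The 4 probes therefore shared a direction, and the difference did not pass the test on any of them.

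Tef, the related PAR bZIP gene, had levels of 3.15, 4.33 and 4.36 with monuron, against 3.91, 4.87 and 5.25 with corn oil. Replicate 1 was the lowest array of each group and the groups overlapped. The fold was 0.842 (0.624 to 1.14, adjusted p = 0.512). The log2 fold change of -0.25 shrank to -0.094 with monuron replicate 1 left out, and to -0.0048 with corn oil replicate 3 left out as well, the 2 arrays with the highest hepatocyte marker sums of their groups. With single arrays left out it lay between -0.37 and -0.094. Its dimmer probe put the arrays in the same order within each group, at 0.414, 0.548 and 0.591 with monuron and 0.575, 0.696 and 0.749 with corn oil, with a fold of 0.764 (0.573 to 1.02).

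Taken over all probes, 0 of the 20 tested clock gene probes were called by limma when each probe was tested on its own, against 1.22% of all 41125 probes. An unadjusted p under 0.05 was reached by 3 of the 20, against 17.5% of all probes, and the groups did not overlap in 4 of the 20, against 25.5%. The smallest adjusted p was 0.126, on a probe of Dbp. The 95% interval of the fold lay within 2-fold either way for 8 of the 10 genes and within 1.5-fold for 5 of them (Arntl, Per2, Per3, Cry1 and Dbp), but within 1.2-fold for 0. A change of 1.2-fold in at least 1 direction therefore lay inside the interval of every one of the 10, and the intervals of Per1 and Nr1d1 were the widest.

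How far rats of a group differed from each other varied among the clock genes. The residual SD between arrays of a group, on the log2 scale, was 0.59 for Per1 and 0.56 for Nr1d1, larger than in 95.8% and 95.2% of all tested genes. It was 0.25 for Tef, 0.23 for Npas2 and 0.21 for Per2, between 0.14 and 0.15 for Nr1d2 and Cry1, 0.11 for Arntl, 0.095 for Per3 and 0.091 for Dbp. The median was 0.18 over the 10 genes and 0.14 over all tested genes, and 6 of the 10 lay above that median. The time of collection of each rat was not available to set beside this spread.

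**Figure D3:**
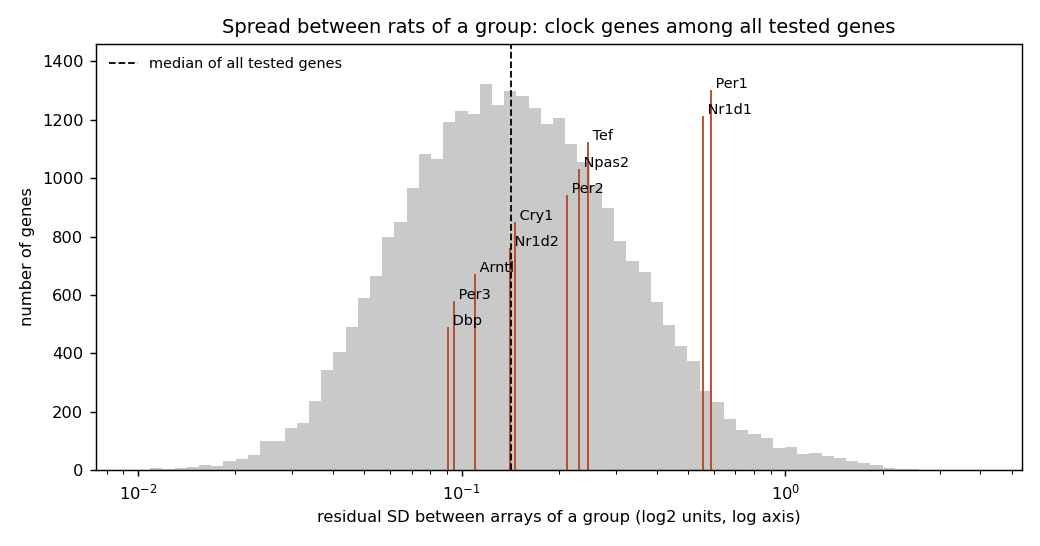
Histogram of the residual SD between arrays of a group (horizontal log axis, log2 units) for all tested genes, with a line for each of the 10 clock genes, whose heights only keep the names apart, and a dashed line at the median of all genes (0.14). Per1 (0.59) and Nr1d1 (0.56) lie in the right tail, while Dbp (0.091) and Per3 (0.095) lie left of the median.

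Further genes of the clock were described from lists of 69 genes in 6 groups, of which 57 were measured. limma called 1 of the 57 higher, against 0.949% of all genes, and 1 lower, against 0.414%. Both belong to the 13 other clock regulators, of which 7 were measured (median log2 fold change 0.16). Nfil3, the bZIP repressor that competes with DBP and TEF at D-boxes, fell to 0.415, 0.442 and 0.465 with monuron, against 0.722, 0.697 and 0.638 with corn oil. All monuron arrays lay below all corn oil arrays, and the fold was 0.642 (0.559 to 0.737, adjusted p = 0.0330). Over the alternatives its adjusted p ran from 0.00329 to 0.198. The 0.00329 is from spike-in scaling, where 68.6% of all genes were called lower, and the lowest under any other alternative was 0.0173. Timeless, named for its fly relative in the clock and known in mammals mainly as a factor of the DNA replication fork, rose to 0.181, 0.192 and 0.209 with monuron, against 0.125, 0.137 and 0.122 with corn oil. The groups did not overlap, and the fold was 1.52 (1.31 to 1.75, adjusted p = 0.0435, with 0.0251 to 0.356 over the alternatives). Leaving out any 1 of the 6 arrays took away both calls, with an adjusted p of 0.0721 to 0.133 for Nfil3 and 0.0982 to 0.151 for Timeless, while their log2 fold changes stayed between -0.69 and -0.60 and between 0.54 and 0.65. On spike-in scaling Timeless stood at 0.092 on the log2 scale. Transcripts of red cells also separated the groups, with a summed level of 3 measured erythroid markers of 342 to 367 with monuron against 155 to 209 with corn oil, and their part in these differences was not tested.

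Clock, the usual partner of Arntl, was at 0.447, 0.427 and 0.430 with monuron, against 0.330, 0.354 and 0.305 with corn oil. Its groups did not overlap, the fold was 1.32 (1.16 to 1.51), and it was not called (adjusted p = 0.0861). Its dimmer probes gave log2 fold changes of 0.38 and 0.27, so all 3 probes had the same sign. Cipc, an inhibitor of the CLOCK complex, had a fold of 1.16 (0.956 to 1.41, adjusted p = 0.388). Its dimmer probes differed in direction, with folds of 1.35 (1.09 to 1.68) and 0.979 (0.756 to 1.27), and neither was called. Cry2, Arntl2 and Bhlhe40 overlapped between the groups on their brightest probes, and Rorb and Ciart were detected on no array.

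Of the 11 kinases, ubiquitin ligases and related enzymes that set the lifetime of PER and CRY proteins, 9 were measured and 0 called, with a median log2 fold change of -0.016. Prkaa2, a catalytic subunit of AMP-activated kinase, had the smallest p among them, with a fold of 0.884 (0.778 to 1.00, adjusted p = 0.298). Gsk3b, a kinase of several clock proteins, followed with 0.922 (0.830 to 1.02, adjusted p = 0.385). Of 12 output genes of the clock, 10 were measured and 0 called, with a median of 0.023. Nampt, the rate-limiting enzyme of NAD salvage, stood at 1.01, 0.991 and 0.983 with monuron against 0.807, 0.858 and 0.865 with corn oil, and Nr1i3, the drug-sensing receptor CAR, at 0.0752, 0.0797 and 0.0733 against 0.0608, 0.0443 and 0.0514. Neither group pair overlapped, and neither gene passed the correction, with folds of 1.18 (1.06 to 1.31, adjusted p = 0.145) and 1.47 (1.18 to 1.82, adjusted p = 0.112). The values of Nr1i3 rest on a single dim probe, and its other probes were well above background on no array.

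Of 11 kidney transport and related genes with a daily rhythm, all were measured and 0 called, with a median of -0.085. Edn1, the endothelin-1 gene, which PER1 represses in mouse collecting duct cells, was at 0.0553, 0.0979 and 0.0883 with monuron, against 0.0373, 0.0217 and 0.0207 with corn oil. It was tested because all 3 monuron arrays detected it, while only 1 of the 3 corn oil arrays did. The corn oil level is thus mostly one not above background, no exact fold is given, and the gene was not called (adjusted p = 0.0871). Scnn1a, the alpha subunit of the epithelial sodium channel and a target of PER1 in mice, had a fold of 1.17 (0.979 to 1.40, adjusted p = 0.332). Its dimmer probe gave a larger fold of 1.43 (1.11 to 1.84), and it was not called either (limma, adjusted p = 0.172 over all probes). Slc5a2, the glucose transporter of the early proximal tubule, had 0.821 (0.700 to 0.962, adjusted p = 0.209) and is itself one of the proximal tubule markers whose sum was lower with monuron, and Fxyd5, a regulator of the sodium pump, 0.863 (0.765 to 0.974, adjusted p = 0.216).

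Per1 responds to glucocorticoids and to cyclic AMP, so genes that share those inputs were set beside it. Of 12 glucocorticoid-responsive genes, 11 were measured and 0 called. Their log2 fold changes had a median of -0.36, with 9 below 0, where 13502 of all 30229 tested genes lay below 0. The groups did not overlap in 1 of the 11, against 25.7% of all tested genes. Tsc22d3, the glucocorticoid-induced leucine zipper gene, was at 2.30, 3.49 and 3.35 with monuron against 4.39, 4.29 and 3.81 with corn oil, with a fold of 0.720 (0.534 to 0.973, adjusted p = 0.252). Errfi1, a feedback inhibitor of the EGF receptor, was at 37.5, 69.0 and 33.5 with monuron against 94.7, 106 and 63.1 with corn oil, with a fold of 0.516 (0.293 to 0.908, adjusted p = 0.228). Sgk1, a kinase that holds sodium channels at the membrane, was at 6.32, 13.6 and 6.71 with monuron against 12.5, 11.1 and 9.18 with corn oil (fold 0.767, 0.445 to 1.32). Per1 was highest on replicate 2 within monuron and lowest on replicate 3 within corn oil. Of the 11 measured genes of this list, 7 were highest on monuron replicate 2 within that group and 8 were lowest on corn oil replicate 3. Both held for 6 (Tsc22d3, Sgk1, Klf9, Cebpd, Errfi1 and Nfkbia). These arrays were picked by the order of Per1, and the same counts were not made over all tested genes. A shared input was not tested. Fkbp5, a chaperone gene that glucocorticoids raise strongly, was highest on corn oil replicate 3, at 2.73, 6.88 and 5.59 with monuron and 2.60, 4.13 and 7.41 with corn oil. Of 10 immediate early genes 9 were measured and 0 called. Their log2 fold changes had a median of 0.28, with 8 above 0, where 16727 of all 30229 tested genes lay above 0. The groups did not overlap in 3 of the 9. Btg2, an antiproliferative gene, had the smallest p among them, with a fold of 1.34 (1.04 to 1.73, adjusted p = 0.234).

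**Figure D4:**
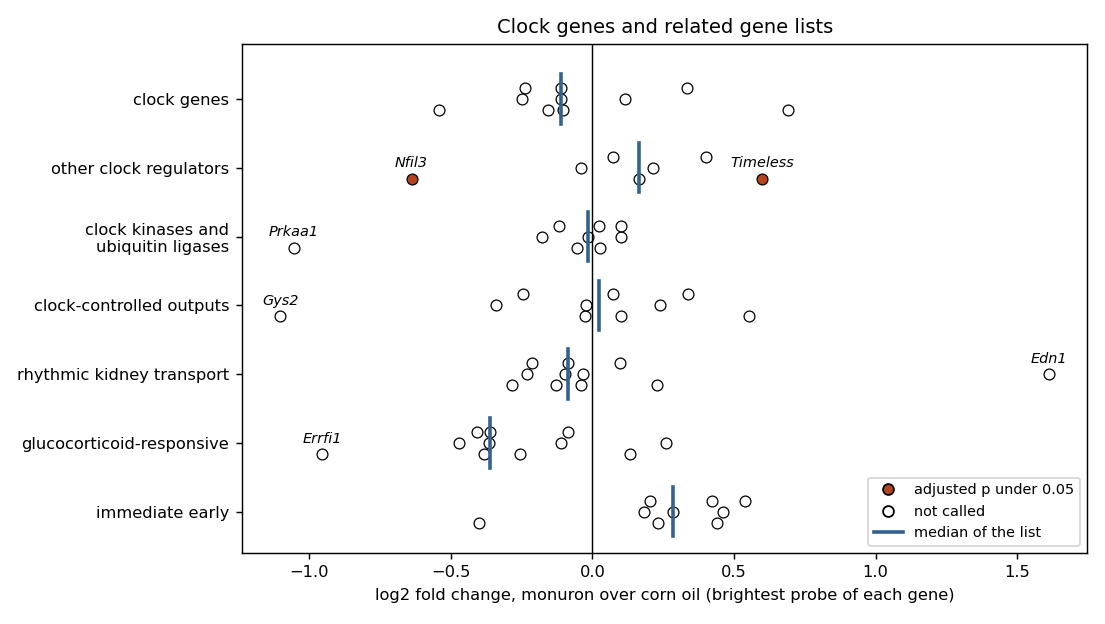
Log2 fold change of monuron over corn oil (horizontal axis) for each measured gene by its brightest probe, with the 10 clock genes in the top row and the related lists under it. Filled points passed limma's adjusted p under 0.05, vertical bars are list medians, and genes called or beyond 0.9 either way are named. Only Nfil3 and Timeless are filled, and the medians run from -0.36 for glucocorticoid-responsive to 0.28 for immediate early genes.

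The genes whose levels over the 6 arrays were most like those of Dbp, among 12054 genes with a symbol, were Abcg1, a sterol efflux pump, Bcl2a1, a survival factor of the BCL2 family, 2700097O09Rikl, Pck1, the cytosolic enzyme that commits carbon to gluconeogenesis, and Anks3, with Pearson's r from 0.976 to 0.980. Pck1 was at 241, 217 and 222 with monuron against 237, 265 and 246 with corn oil, the same order of arrays as Dbp. Those most like Arntl were Slc25a32, a folate carrier of mitochondria, Dcp1a, an mRNA decapping factor, Ythdf1, a reader of methylated adenosine in mRNA, Armcx3 and Dmrtc1a, with r from 0.972 to 0.986. With 6 arrays and so many genes, r of this size is found readily, and these names describe the likeness only.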

How the data were processed

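The authors deposited the spot intensity of each array, read by Feature Extraction 10.7 from Agilent (per the submitters' processing notes), and a table of scaled values. Checked against the scanner files, that table, deposited as a linear ratio, holds the processed signal divided by 1 constant per array (its values of at least 0.1 match within 0.0497%). Its column medians were 0.1114, 0.1106 and 0.1099 for monuron and 0.1085, 0.111 and 0.1121 for corn oil replicates 1 to 3. The 75th percentile of each column lay between 0.9998 and 1.

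Here the processed signal was divided by its 75th percentile on each array and taken to log2, without the 1439 control spots and outlier spots. Probes well above background on all 3 arrays of a group were kept (41125). Unversioned accessions named 28206 probes (45.8%) through RefSeq (GRCr8). The brightest probe of each gene was tested two-sided by lmFit and eBayes of limma 3.58.1 (R 4.3.3), with p-values adjusted over 30229 genes by Benjamini-Hochberg and a threshold of 0.05. Values of further probes come from the same fit over all probes. The code was tested on simulated arrays. The array number, 3 a group, limits the precision.

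The 10 genes, the related lists and the markers were chosen with earlier results of these data known, so no p is given over a list. The rule for naming took all 10 genes, called genes of the other lists and up to 4 of each with the smallest p, and the 5 genes most like Dbp and like Arntl. Fkbp5, Sgk1 and the further regulators were named after their values were seen. The files hold no mean spot signal, so normexp (offset 50) used the median. Replicate numbers pair no animals in the labels, and residuals of same-numbered arrays correlated at -0.08, 0.11 and -0.17.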

Additional observations from a re-analysis of the deposited data

How the results depend on the processing

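The authors' table is 1 of the 20 alternatives and has nearly the scaling of the main fit, so it is close to a repeat of that fit. Over the 20 alternatives, 0 of the 10 clock genes were called in 19 and 7 with spike-in scaling. There Per2 stood at -0.61, Dbp at -0.67, Tef at -0.76, Arntl at -0.62, Npas2 at -0.75 and Cry1 at -0.62 on the log2 scale, and the sign turned for Per3 (-0.39) and Nr1d2 (-0.18). That scaling lowered all genes and called 20748 lower. The sign of Per2 also turned without monuron replicate 1 (0.056) and without both monuron replicate 1 and corn oil replicate 3 (0.075). That pair had the highest hepatocyte marker sums of their groups, at 40.3 and 22.7. Monuron replicate 2, which was kept, stood close to the latter at 20.7.

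All genes called higher and lower numbered 287 and 125. They were 61 lower with no scaling, 450 and 317 with normexp, and 67 and 19 with no detection filter. With trend and robust they were 431 and 276. They were 0 and 0 without both monuron replicate 1 and corn oil replicate 3. Without single arrays they were 25 to 111 and 5 to 27. With the replicate number as a block the counts were 0 and 0, and no clock gene was called. Since the numbers pair no animals, a call lost there is no weaker effect.

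Of the related genes, limma called 1 higher (Timeless) and 1 lower (Nfil3). Timeless lost its call with array median scaling (0.60, adjusted p = 0.0515) and normexp (0.34, adjusted p = 0.0527). Nfil3 lost its call with no scaling (-0.55, adjusted p = 0.0611). The counts were 0 and 0 with no detection filter, with the replicate block and without each single array. They were also 0 and 0 without both monuron replicate 1 and corn oil replicate 3. With spike-in scaling 35 were lower and 1 higher, Edn1, which only 1 of 3 corn oil arrays detected. Nfil3 was called in 10 and Timeless in 8 of the 20. The causes were not tested, except that leaving out arrays leaves fewer samples and no filter adds dim probes.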

Other observations

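Within corn oil, the clock genes split over the arrays. Corn oil replicate 1 was the highest array of its group for 4 of the 10 genes (Arntl, Npas2, Cry1 and Per1) and the lowest for 5 (Nr1d1, Tef, Dbp, Per2 and Per3). Corn oil replicate 3 was the lowest for 5 (Arntl, Npas2, Cry1, Per1 and Nr1d2) and the highest for 3 (Nr1d1, Tef and Per3). Nr1d1 was at 0.123 on corn oil replicate 1 and 0.304 on corn oil replicate 3, where Arntl was at 3.45 and 2.86 and Npas2 at 1.87 and 1.32. Within monuron, replicate 1 was the highest array for Arntl, Npas2, Dbp and Per3 and the lowest for Tef, Per2 and Cry1, so Dbp and Tef stood at opposite ends of the group there. These orders rest on 3 arrays a group and were not tested.

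Prkaa1, the other catalytic subunit of AMP-activated kinase, was at 1.76 on corn oil replicate 3 and between 0.160 and 0.189 on the other 5 arrays. Noct, a clock output gene that encodes a phosphatase of NADP(H), was at 1.49 on monuron replicate 2, against 0.633 and 0.579 on the other monuron arrays and 0.575 to 0.772 with corn oil, the array that was also highest for Per1. Both were named after their values were seen.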
